A study of Mus musculus with 12 samples.

Results

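Tight junction genes of epithelium were followed in the lungs of aging mice. The 9 genes encode the claudins Cldn18, Cldn3, Cldn4 and Cldn7, the membrane protein occludin (Ocln), the adhesion molecule JAM-A (F11r) and the scaffolds ZO-1 (Tjp1), ZO-3 (Tjp3) and cingulin (Cgn). They were taken by gene symbol from a table of 35275 mouse genes, and each of the 9 symbols matched 1 row. All 9 genes held enough reads to be tested, among 16042 genes tested in all. The lungs came from 12 male wild-type C57Bl/6J mice, 3 each at 3, 6, 12 and 24 months of age, with no other treatment named in the labels. A single poly(A) RNA-seq library was made per mouse from minced whole lung kept in RNAlater. Reads from whole lung are not assigned to a cell type, so differences in these 9 genes cannot be placed in epithelium alone. Mice at each age were separate animals, so every comparison between ages is between animals and not within an animal.

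Tight junctions seal the space between neighbouring epithelial cells. Claudins span the membrane and set how tightly the seal holds and which ions pass it, and occludin and JAM-A run alongside them. ZO-1 and ZO-3 bind the inner ends of claudins and tie them to actin, and cingulin is a further plaque protein on the inner face. In the alveolus, claudin-18 is the main claudin of the gas-exchanging type 1 cells, claudin-3 is found mainly in the surfactant-producing type 2 cells, and claudin-4 is known as a claudin that rises in lung injury. Claudin-7 is common along the airways and alveoli. Other epithelia next to the lung, such as stomach, also use these genes, and alternative starts of Cldn18 give a lung form and a stomach form.

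The stretch of 250 bases before the annotated start was read for each gene from RefSeq (GRCm38.p6), with 13 such windows for the 9 genes. Those of Cldn18, Cldn3 and Cldn4 are shown because the uncorrected levels of these claudins differed in direction at 24 months, which the corrected ones did not. Those of Ocln and Tjp1 are shown because these transcripts are poor in G and C while their upstream windows are not. Capitals mark matches to a list of 5 short motifs, read on both strands, and in the sequences shown the matches are CAAGTG (NKX2-1 core), GGGCGG (Sp1, printed as CCGCCC on the other strand), TGANTCA (AP-1) and CACCTG (E-box of the SNAIL and ZEB repressors).
Cldn18, upstream start, chr9:99717268-99717517, minus strand: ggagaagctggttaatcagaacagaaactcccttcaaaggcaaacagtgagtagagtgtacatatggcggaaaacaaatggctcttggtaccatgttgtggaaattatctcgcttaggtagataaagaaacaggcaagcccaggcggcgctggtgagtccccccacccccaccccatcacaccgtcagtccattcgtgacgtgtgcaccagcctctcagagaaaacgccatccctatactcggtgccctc
Cldn18, downstream start, chr9:99710064-99710313, minus strand: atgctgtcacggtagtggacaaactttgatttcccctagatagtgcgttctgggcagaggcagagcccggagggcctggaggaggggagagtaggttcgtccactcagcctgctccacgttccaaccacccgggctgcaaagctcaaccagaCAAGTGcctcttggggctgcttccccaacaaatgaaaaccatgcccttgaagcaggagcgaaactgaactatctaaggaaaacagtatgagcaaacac
Cldn3, chr5:134985964-134986213, plus strand: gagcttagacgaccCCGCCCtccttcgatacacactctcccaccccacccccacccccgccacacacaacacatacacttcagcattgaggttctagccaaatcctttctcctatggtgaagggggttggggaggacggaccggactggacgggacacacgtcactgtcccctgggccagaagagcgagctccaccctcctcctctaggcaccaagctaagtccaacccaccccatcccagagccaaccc
Cldn4, chr5:134946935-134947184, minus strand: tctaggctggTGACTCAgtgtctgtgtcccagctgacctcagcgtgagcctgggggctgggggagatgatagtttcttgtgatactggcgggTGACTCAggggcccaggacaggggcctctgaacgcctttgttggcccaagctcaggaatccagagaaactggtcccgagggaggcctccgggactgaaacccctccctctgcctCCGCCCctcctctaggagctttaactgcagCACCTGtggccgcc
Ocln, upstream start, chr13:100552719-100552968, minus strand: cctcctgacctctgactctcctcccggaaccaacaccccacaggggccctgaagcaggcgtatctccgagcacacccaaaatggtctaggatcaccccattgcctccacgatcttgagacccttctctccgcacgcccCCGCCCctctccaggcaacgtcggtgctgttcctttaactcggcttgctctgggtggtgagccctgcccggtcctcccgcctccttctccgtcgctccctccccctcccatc
Tjp1, chr7:65371245-65371494, minus strand: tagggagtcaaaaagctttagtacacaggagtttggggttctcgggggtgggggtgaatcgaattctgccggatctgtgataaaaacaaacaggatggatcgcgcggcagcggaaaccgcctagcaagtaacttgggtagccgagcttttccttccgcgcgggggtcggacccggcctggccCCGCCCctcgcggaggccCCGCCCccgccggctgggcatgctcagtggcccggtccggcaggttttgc

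The window before the downstream Cldn18 start lies inside the gene and holds CAAGTG at position -98 from that start, on the gene's strand. The window before the upstream Cldn18 start holds no match to any of the listed motifs. Which Cldn18 start gives the lung form and which the stomach form was not tested. The CAAGTG match is therefore not assigned to the lung form. The Cldn4 window holds TGACTCA at positions -240 and -158, CCGCCC at -44 and CACCTG at -14. Among the 9 genes, GGGCGG was found before Cldn3, Cldn4, Cldn7, Ocln, F11r, Tjp1 and Cgn, 7 in all, and in 8 of the 13 windows. It was present in 32.7% of 32841 mouse windows of the same length. CACCTG was found in 6 of the 13 windows (of Cldn4, Cldn7, Ocln, F11r and Tjp3) and in 17.2% of all windows. CAAGTG was found in 2 windows (of Cldn18 and Cldn7) and in 11.6% of all windows, and TGANTCA in 2 (of Cldn4 and F11r) and in 6.75%. AACCNGTT, the motif of the GRHL factors of epithelium, was found only before Cgn among the 9 genes, and in 1.79% of all windows. No match in these windows overlapped another. These matches are descriptions of sequence and do not show binding. The windows were 60.8% G and C for Cldn3, 62.0% for Cldn4, 64.0% for the upstream start of Ocln and 63.2% for Tjp1, against a median of 52.4% over all windows.

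Cldn4 and Cldn3 lie beside each other on chromosome 5 (mm10), at 134945126-134946934 on the minus strand and 134986214-134987472 on the plus strand. They point away from each other, with 39279 bp between them and 0 other genes of the table in that stretch. The other members are on different chromosomes, namely Cldn18 at chr9:99689461-99717267, Cldn7 at chr11:69964779-69967885, Ocln at chr13:100496507-100552718, F11r at chr1:171437535-171464603, Tjp1 at chr7:65296165-65371239, Tjp3 at chr10:81273207-81291267 and Cgn at chr3:94760069-94786492. Tjp3 overlaps Apba3 on the other strand by 40 bp, and Apba3 held 549 to 2169 reads per library. Whether counting used strand is not given, so a share of Tjp3 reads could belong to Apba3. Cldn3 overlaps Wbscr25 by 40 bp, with 2 to 17 reads there.

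The libraries held 14.7 to 21.2 M gene reads. The 3 libraries of 24 months stood apart from the other 9 as a group. Their reads came from genes with a mean GC content of 54.1% to 55.8%, against 50.1% to 51.5% at 3 to 12 months. Mitochondrial genes took 0.443% to 0.629% of their reads, against 1.65% to 3.12%, and 17533 to 18513 genes had a read, against 19539 to 20625. Among the 9 younger libraries, mice 1 and 2 of 12 months also stood higher in GC content, at 51.4% and 51.5%. Mouse 3 of 12 months read 50.4%, and the libraries of 3 and 6 months 50.1% to 50.7%. The 3.12% of mitochondrial reads was that of mouse 3 of 12 months, the other younger libraries reaching at most 2.14%. Age and these library properties cannot be told apart in this design. Fold changes are therefore given from the uncorrected fit and from a fit corrected for GC content and gene length, in which each library's smooth dependence on transcript GC content and gene length was removed. The correction would also take out a biological change that follows GC content or length, so neither fit is offered as the true one. Mouse 3 of 24 months stood furthest from the rest, and values without it are given where they differ in call.

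At 24 months, 8 of the 9 genes differed from 3 months in edgeR's quasi-likelihood test (adjusted p under 0.05), 4 higher and 4 lower. Cldn3, Cldn4, Cldn7 and Tjp3 were higher, and Cldn18, Ocln, F11r and Tjp1 were lower. Cgn was not called. This share must be read against 82.8% of all tested genes that were called in the same comparison, 38.2% higher and 44.6% lower, so a call at 24 months is near the background. The counting of mice without overlap gave the same 4 higher and 4 lower, against 84.4% of all tested genes, 38.6% higher and 45.8% lower. With the correction, 1 gene was called higher (Cldn7) and 4 lower (Ocln, F11r, Tjp1 and Cgn), against 58.5% of tested genes, 30.3% higher and 28.2% lower. The median log2 fold of all tested genes was -0.29 under the main scaling and -1.001 when libraries were scaled on their totals, and -0.01 with the correction. The direction of 8 genes was the same under RLE scaling and under library totals, and that of Cgn turned to -0.60 under library totals.

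**Figure D1:**
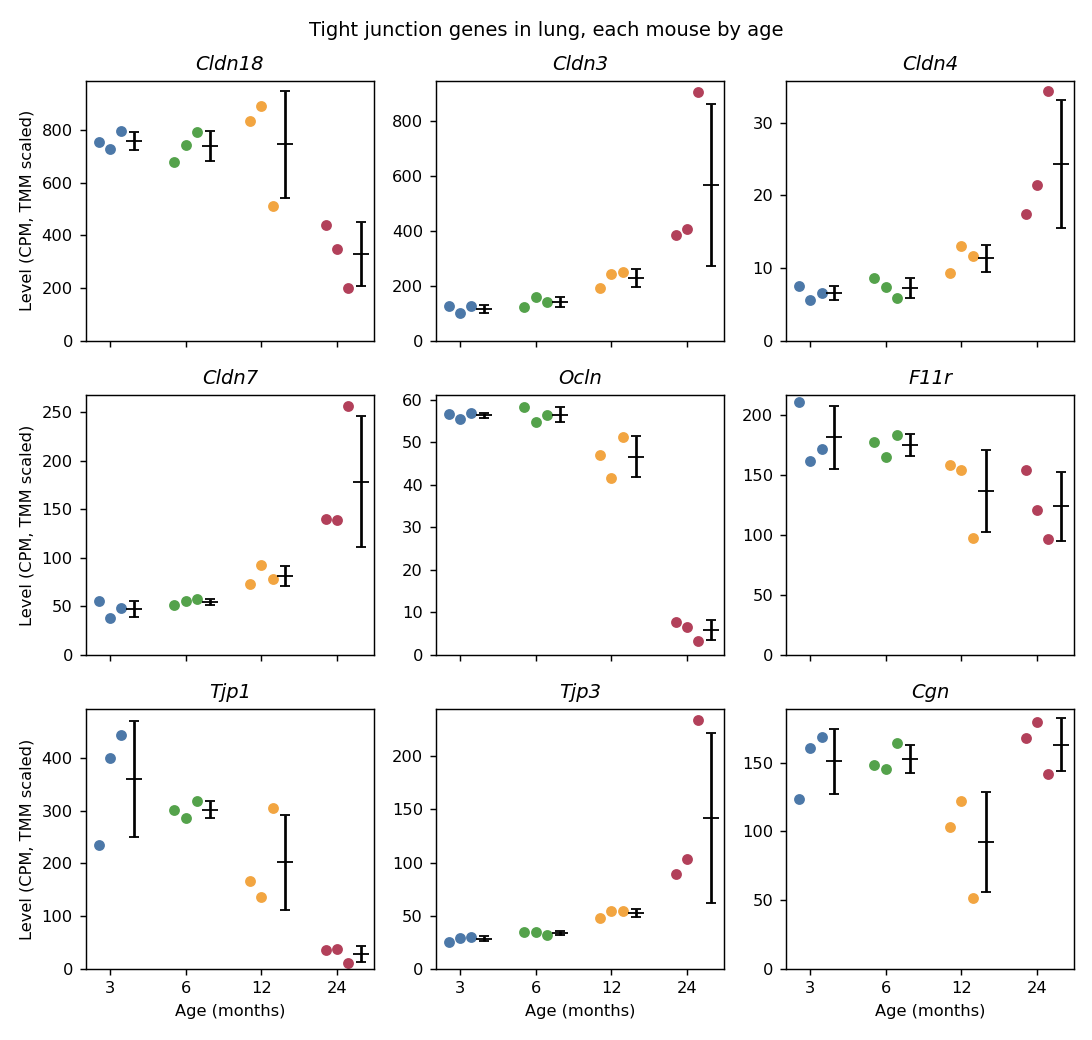
Level of each of the 9 genes in CPM (counts per M reads, scaled with TMM library sizes, linear axes starting at 0) in each mouse at 3, 6, 12 and 24 months. Points are single mice and the black marks are the mean ± SD of 3 mice. Cldn3, Cldn4, Cldn7 and Tjp3 stand highest at 24 months, and Cldn18, Ocln and Tjp1 stand lowest there.

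Cldn18, a claudin of the alveolus, had similar mean levels of 758, 739 and 746 CPM at 3, 6 and 12 months and a lower one, 329, at 24 months. It read 754, 727 and 795 CPM at 3 months, 680.0, 743 and 792 at 6 months, 833, 891 and 514 at 12 months, and 439.5, 348 and 199 at 24 months. All 3 mice of 24 months lay below all other mice, and mouse 3 of 12 months lay below the other 8 younger mice. Cldn18 was 2.30-fold lower at 24 than at 3 months, a log2 fold of -1.20 ± 0.27 (SE, adjusted p = 0.00073). With the correction it was 0.21 ± 0.18 (adjusted p = 0.32), so the call was lost and the sign turned. Levels at 12 and 3 months differed by a log2 fold of -0.02 (adjusted p = 0.96), and of 0.18 without mouse 3 of 12 months. Between 12 and 24 months the log2 fold was -1.18 (adjusted p = 0.00095), which the correction moved to -0.09 (adjusted p = 0.71).

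Cldn3, a claudin of type 2 cells, was higher at each later age by mean level. It read 125, 99.8 and 126 CPM at 3 months, 125, 159 and 142 at 6 months, 192, 244 and 249 at 12 months, and 386, 409 and 907 at 24 months. The 3 mice of 12 months lay above all mice of 3 and 6 months, and the 3 mice of 24 months above all others, with mouse 3 far above mice 1 and 2. From 3 to 24 months Cldn3 rose 4.85-fold, a log2 fold of 2.28 ± 0.30 (adjusted p = 4e-06), or of 1.76 without mouse 3 of 24 months. After correction this difference was 0.08 ± 0.14 (adjusted p = 0.64). The rise from 3 to 12 months was 0.96 ± 0.29 (adjusted p = 0.037), against 0.40 ± 0.14 in the corrected fit, where it missed the threshold (adjusted p = 0.062).

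Cldn4, the claudin tied to lung injury, was the least abundant of the 4 claudins. It read 7.53, 5.54 and 6.57 CPM at 3 months, 8.64, 7.36 and 5.89 at 6 months, 9.30, 12.99 and 11.7 at 12 months, and 17.4, 21.4 and 34.3 at 24 months. These levels rest on 125 to 294 reads per library. All mice of 24 months lay above all younger mice, and all mice of 12 months above those of 3 and 6 months. Its log2 fold of 24 over 3 months was 1.89 ± 0.27 (adjusted p = 8.2e-06), 3.70-fold higher, and 0.20 ± 0.17 (adjusted p = 0.31) with the correction. The difference between 12 and 3 months, 0.79 ± 0.26, missed the threshold (adjusted p = 0.053).

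Cldn7, a claudin of airway and alveolar epithelium, kept a call at 24 over 3 months in both fits. It read 55.5, 38.3 and 48.1 CPM at 3 months, 51.1, 55.2 and 57.1 at 6 months, 72.9, 92.6 and 77.9 at 12 months, and 139.6, 139 and 257 at 24 months. The 12-month mice lay above all mice of 3 and 6 months, and the 24-month mice above all others. Cldn7 stood 3.77-fold higher at 24 than at 3 months, a log2 fold of 1.91 ± 0.25 (adjusted p = 3.8e-06). With the correction it was 0.32 ± 0.12 (adjusted p = 0.037), and that call was lost without mouse 3 of 24 months (0.25, adjusted p = 0.092). Of the 6 corrected fits that each left out 1 mouse, 2 called it, with adjusted p of 0.03 to 0.16.

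Against Epcam, a general epithelial marker, and per gene length, the claudins also parted from each other. The FPKM ratio of Cldn18 to Epcam was 4.35 to 5.30 at 3 months and 2.68 to 6.03 at 24 months, and these ranges overlapped. The ratio of Cldn3 to Epcam was 2.40 to 2.58 at 3 months and 17.6 to 40.5 at 24 months, with no overlap. Epcam itself read 84.7, 67.0 and 79.0 CPM at 3 months and 35.6, 35.0 and 36.3 at 24 months. It was 1 of the 2 epithelial markers called lower, while the other 4 of that list were called higher, so the ratios hold for Epcam alone and carry no correction for GC content. In whole lung, fewer cells of a type and less RNA per cell cannot be told apart.

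The 4 claudins can be compared with each other only per gene length, for which the authors' FPKM was used. Cldn18 made up 58.1% ± 2.84 (SD, n = 3) of the summed FPKM of the 4 claudins at 3 months, 52.9% ± 1.81 at 6 months, 41.5% ± 8.62 at 12 months and 13.6% ± 7.83 at 24 months. Its share was 20.0%, 15.9% and 4.88% in the 3 mice of 24 months, all below the lowest younger mouse, mouse 3 of 12 months with 31.9%. Cldn3 held 29.5% ± 1.52 at 3 months and 64.6% ± 7.96 at 24 months. Cldn7 held 11.2% ± 1.37 and 19.8% ± 0.129 at these ages, and Cldn4 1.15% ± 0.110 and 2.01% ± 0.219. In these uncorrected shares the order of Cldn18 and Cldn3 was reversed between 3 and 24 months. In mouse 3 of 12 months Cldn3, at 51.3%, already exceeded Cldn18. By reads, without division by length, the share of Cldn18 was 81.7% at 3 months and 32.3% at 24 months. These shares carry no correction for GC content, and in the corrected fit neither Cldn18 (0.21) nor Cldn3 (0.08) was called at 24 over 3 months, which gives no such reversal.

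**Figure D2:**
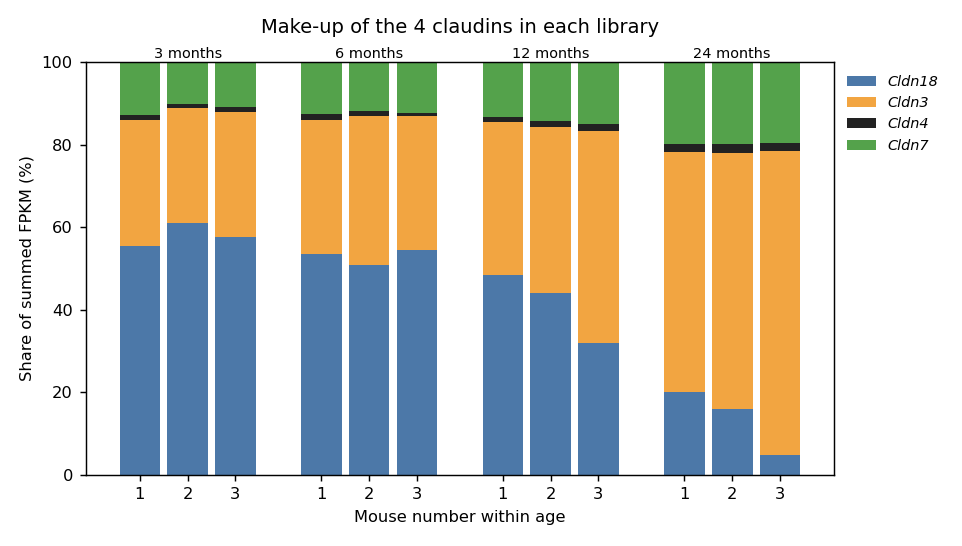
Share of Cldn18, Cldn3, Cldn4 and Cldn7 in their summed FPKM (percent, y axis), as 1 stacked bar per mouse, grouped by age. Cldn18 takes 55.4% to 61.1% at 3 months and 4.88% to 20.0% at 24 months, and Cldn3 takes 58.3% to 73.5% at 24 months.

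Occludin, a membrane protein of the junction that is not a claudin, read nearly the same in all mice of 3 and 6 months and was far lower at 24 months. Ocln read 56.6, 55.5 and 56.8 CPM at 3 months, 58.3, 54.7 and 56.3 at 6 months, 47.0, 41.7 and 51.1 at 12 months, and 7.74, 6.62 and 3.16 at 24 months. The 12-month mice lay below all younger mice, and the 24-month mice far below those. The 24-month levels rest on 94, 91 and 27 reads. The fall from 3 to 24 months was 9.49-fold, a log2 fold of -3.25 ± 0.26 (adjusted p = 6.6e-08). Corrected, it was -0.64 ± 0.15 (adjusted p = 0.0024), a smaller value that was still called, also in each of the 6 corrected fits that left out 1 mouse (-0.73 to -0.56). Ocln at 12 months was not called against 3 months, with -0.27 (adjusted p = 0.39), or 0.25 after correction (adjusted p = 0.2).

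JAM-A, encoded by F11r, is an immunoglobulin-type adhesion molecule that helps place the junction. F11r read 210.4, 161 and 171 CPM at 3 months, 177, 164 and 183 at 6 months, 158, 154 and 96.9 at 12 months, and 154, 121 and 96.0 at 24 months. The mice of 12 and of 24 months each lay below those of 3 and 6 months, and overlapped each other. F11r was 1.47-fold lower at 24 than at 3 months, a log2 fold of -0.55 ± 0.23 (adjusted p = 0.037), and of -0.46 ± 0.14 after correction (adjusted p = 0.011). Without the correction the call was lost under RLE scaling (adjusted p = 0.076), in the fit of only these 2 ages (0.06), without mouse 2 of 24 months (0.084) and without mouse 3 of 24 months (0.087). Its fold of 12 over 3 months, -0.41 in log2, was not called (adjusted p = 0.21), whereas the corrected one, -0.43 ± 0.14, was (adjusted p = 0.044). Of the 6 corrected fits that left out 1 mouse, the call stood only in that without mouse 1 of 12 months (adjusted p of 0.045 to 0.14).

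The scaffolds moved in different directions at 24 months. Tjp1, which encodes ZO-1, read 236, 400.0 and 444 CPM at 3 months, 302, 286 and 318 at 6 months, 167, 136 and 305 at 12 months, and 35.0, 38.1 and 10.2 at 24 months. The 24-month mice lay below all others, and the 3 younger ages overlapped, mouse 1 of 3 months and mouse 3 of 12 months being out of step with their groups. Tjp1 was 12.9-fold lower at 24 than at 3 months, a log2 fold of -3.69 ± 0.44 (adjusted p = 1.7e-06). Corrected, it was -1.47 ± 0.29 (adjusted p = 0.00079), and -1.74 to -1.20 over the 6 corrected fits that left out 1 mouse, all of them called. It was the largest corrected difference of the 9 genes. Its 12-month level differed from that of 3 months by -0.83 ± 0.40 (adjusted p = 0.15).

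Tjp3, which encodes ZO-3, a scaffold found mainly in epithelium, was higher where Tjp1 was lower. It read 25.6, 29.2 and 30.1 CPM at 3 months, 34.7, 34.9 and 31.9 at 6 months, 48.2, 54.9 and 54.5 at 12 months, and 89.0, 103 and 234 at 24 months. No mouse of one age overlapped a mouse of another age. Tjp3 was 5.01-fold higher at 24 than at 3 months, with a log2 fold of 2.32 ± 0.30 (adjusted p = 3.1e-06), 1.76 without mouse 3 of 24 months, and 0.05 ± 0.11 (adjusted p = 0.74) after correction. It was called at 12 against 3 months both uncorrected, at 0.89 ± 0.28 (adjusted p = 0.047), and corrected, at 0.42 ± 0.11 (adjusted p = 0.024). The corrected call was lost without mouse 1 or 2 of 3 months or mouse 2 of 12 months (adjusted p of 0.031 to 0.079 over the 6 corrected fits that left out 1 mouse), and the uncorrected one in each of 6 such fits. Between 12 and 24 months the uncorrected rise of 1.43 (adjusted p = 0.00029) became a corrected value of -0.37 ± 0.11 (adjusted p = 0.015), a call in the opposite direction that was lost without mouse 2 of 12 months (adjusted p = 0.054). The ratio of Tjp1 to Tjp3 in FPKM was 3.94, 5.87 and 6.34 at 3 months, 3.74, 3.52 and 4.28 at 6 months, 1.48, 1.06 and 2.40 at 12 months, and 0.169, 0.159 and 0.0187 at 24 months. The ratio was above 1 in all 9 younger mice and below 1 in the 3 oldest, and the 12-month mice lay below all mice of 3 and 6 months. It carries no correction for GC content, and the corrected log2 folds of 24 over 3 months, -1.47 for Tjp1 and 0.05 for Tjp3, lie much closer together than the uncorrected ones.

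Cingulin was lowest at 12 months by mean level. Cgn read 124, 160.5 and 169 CPM at 3 months, 148, 145 and 164 at 6 months, 103, 122 and 51.5 at 12 months, and 168, 179.5 and 142 at 24 months. The 12-month mice lay below all others, and mouse 3 of that age lay furthest down. Cgn at 24 and 3 months differed by a log2 fold of 0.11 ± 0.26 (adjusted p = 0.69), while the corrected value of -1.10 ± 0.20 was called (adjusted p = 0.00028). Cgn at 12 over 3 months gave -0.71 ± 0.26 (adjusted p = 0.074), or -0.72 ± 0.20 in the corrected fit, which called it (adjusted p = 0.024). That call was lost without mouse 2 or 3 of 3 months or mouse 3 of 12 months (adjusted p of 0.027 to 0.085 over the 6 corrected fits that left out 1 mouse). From 12 to 24 months the uncorrected value was 0.82 ± 0.26 (adjusted p = 0.0095) and the corrected one -0.38 (adjusted p = 0.13).

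**Figure D3:**
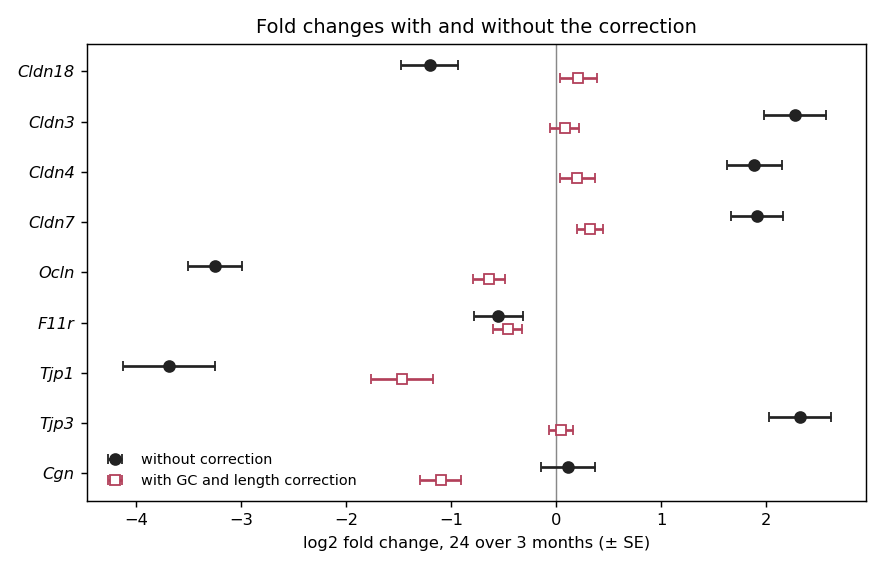
Log2 fold change of 24 over 3 months for each gene (x axis, ± SE), from the uncorrected fit (black circles) and from the fit with the GC and length correction (red squares). The uncorrected values run from -3.69 for Tjp1 to 2.32 for Tjp3, and the corrected values from -1.47 for Tjp1 to 0.32 for Cldn7.

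The differences among the 9 genes at 24 months followed the GC content of their transcripts. Ocln, at 42.0% G and C, and Tjp1, at 46.8%, were lowest, and Tjp3, at 60.7%, and Cldn3, at 62.7%, were highest. Over the 9 genes, Pearson's r of transcript GC content and log2 fold was 0.940 at 24 over 3 months and 0.512 with the correction. The r was 0.755 at 12 over 3 months and 0.929 at 24 over 12 months. These are correlations across genes of the same libraries, which are not independent replicates. The pattern was not particular to tight junction genes. Over all tested genes in 10 equal groups of GC content, the median log2 fold of 24 over 3 months went from -2.60 in the poorest group to 2.24 in the richest. Cldn3 (2.28) and Tjp3 (2.32) stood beside the 2.24 of their own group, and Cldn4 (1.89) and Cldn7 (1.91) beside the 1.81 of theirs. Cldn18 (-1.20) and Tjp1 (-3.69) shared a group with a median of -1.53, with Cldn18 above and Tjp1 below it. Cgn (0.11) stood below the 1.35 of its group, F11r (-0.55) below 0.03, and Ocln (-3.25) below -2.56. In gene length the 4 genes called higher ran from 1259 bp (Cldn3) to 3024 bp (Tjp3). The 4 called lower ran from 2518 bp (F11r) to 7049 bp (Tjp1), and Cgn had 5016 bp. The correction takes out GC content and length together, and the part of each in these differences was not tested beyond it.

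**Figure D4:**
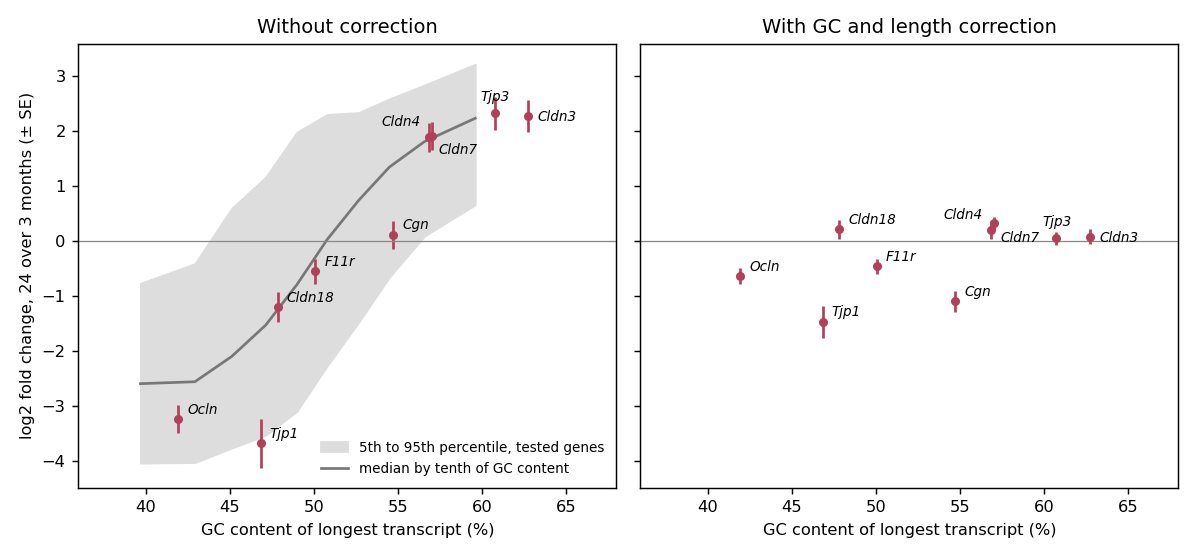
Log2 fold change of 24 over 3 months (± SE) of the 9 genes against the GC content of the longest transcript (percent), without correction on the left and with the GC and length correction on the right. The grey line is the median of all tested genes in each of 10 groups of GC content, from -2.60 to 2.24, and the band is their 5th to 95th percentile. Tjp1 lies below the band and Cgn well below the line.

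At 12 months the 4 genes that were high at 24 months already lay above 3 months without overlap between mice. In edgeR's test 3 of the 9 genes were called higher than at 3 months (Cldn3, Cldn7 and Tjp3) and 0 lower, against 15.2% of tested genes called, 6.3% higher and 8.87% lower. Mice did not overlap for 4 genes higher and 3 lower (Ocln, F11r and Cgn), against 44.4% of tested genes, 24.0% higher and 20.4% lower. The 3 calls were near the threshold. RLE scaling called 0, with adjusted p of 0.065 for Cldn3, 0.068 for Cldn7 and 0.08 for Tjp3, and log2 folds of 1.00, 0.81 and 0.92. Leaving out any 1 of the 6 mice ended the calls of Cldn3 and Tjp3, and Cldn7 was called only without mouse 1 of 3 months or mouse 3 of 12 months. Leaving out the 24-month libraries from the fit gave 6 calls, where 5737 of all 16042 tested genes were called, 3014 higher and 2723 lower. Cldn4 (adjusted p = 0.011), Cldn3 (0.0017), Cldn7 (0.004) and Tjp3 (0.0012) were higher and Tjp1 (0.034) and Cgn (0.045) lower. These 6 also passed in the authors' deposited table, with adjusted p of 0.0105 for Cldn4, 0.0279 for Tjp1 and 0.0414 for Cgn. With the correction, Tjp3 was called higher and F11r and Cgn lower, against 17.7% of tested genes, 9.66% higher and 8.01% lower.

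Between 24 and 12 months 8 genes were called, 5 higher (Cldn3, Cldn4, Cldn7, Tjp3 and Cgn) and 3 lower (Cldn18, Ocln and Tjp1), against 79.7% of tested genes, 37.3% higher and 42.5% lower. With the correction 3 were called lower (Ocln, Tjp1 and Tjp3) and 0 higher, against 44.5% of tested genes, 22.0% higher and 22.5% lower. F11r differed by -0.14 (adjusted p = 0.58). Scaling by library totals ended the calls of Cldn4 (0.42, adjusted p = 0.11) and Cgn (0.24, adjusted p = 0.48) and called F11r lower (-0.70, adjusted p = 0.037). Corrected log2 folds were -0.89 for Ocln (adjusted p = 0.00031) and -1.22 for Tjp1 (adjusted p = 0.0041). The 24-month libraries serve in both comparisons, so these calls repeat those against 3 months in part.

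Between 6 and 3 months none of the 9 genes was called, with log2 folds of -0.25 (Tjp1) to 0.28 (Cldn3). EdgeR called 0.0% of tested genes there, with 267 at an unadjusted p under 0.05, and DESeq2 called 6. Tjp3 was the single gene of the 9 whose mice did not overlap, against 10.9% of tested genes. Between 12 and 6 months none was called (adjusted p from 0.12 for Cgn to 0.98 for Cldn18), against 2.03% of tested genes. The comparison had 3851 tested genes at an unadjusted p under 0.05, and DESeq2 called 1610 genes. Without the 24-month libraries in the fit, 4 of the 9 were called, where 3167 of all 16042 tested genes were called.

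Per gene length, the order of levels by uncorrected FPKM changed between young and old lungs. At 3 months the mean FPKM ran from Cldn18 at 213 ± 5.77 (SD, n = 3) through Cldn3 at 109 ± 11.5, F11r at 84.0 ± 11.01, Tjp1 at 59.8 ± 18.4, Cldn7 at 41.3 ± 6.78, Cgn at 35.2 ± 5.78, Ocln at 16.3 ± 0.20 and Tjp3 at 10.96 ± 1.0004 to Cldn4 at 4.23 ± 0.567. Neighbours in this order whose mice overlapped were Cldn3 and F11r, Tjp1 and Cldn7, and Cldn7 and Cgn. The order of means was the same at 6 months. At 12 months Cldn3 (194 ± 24.6) and Cldn18 (192 ± 53.0) overlapped, and Cldn7 (65.0 ± 7.66) and Tjp3 (18.6 ± 1.07) had moved above Tjp1 (30.7 ± 13.4) and Ocln (12.3 ± 1.26) respectively. At 24 months Cldn3 led at 292 ± 71.6, above Cldn7 at 88.8 ± 10.4, Cldn18 at 58.6 ± 31.4, F11r at 35.7 ± 15.3, Tjp3 at 30.2 ± 8.79, Cgn at 23.3 ± 7.39 and Cldn4 at 8.97 ± 0.963. Tjp1 at 3.00 ± 1.94 and Ocln at 1.08 ± 0.604 were lowest and overlapped each other. Neighbours from Cldn7 down to Cgn also overlapped. The order at 24 months carries no correction for GC content, and corrected log2 folds of 24 over 3 months were smaller in size for 8 of the genes, all but Cgn, for example 0.08 for Cldn3 and -0.64 for Ocln. FPKM is divided by library totals, so its ratios between ages differ from the fold changes given for CPM.

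The wider set of junction genes, 47 tested of 55 listed, was lower more often than higher at 24 months. Of the 47, 16 were called higher and 25 lower than at 3 months, against 38.2% and 44.6% of all tested genes, with a median log2 fold of -0.64 against -0.29 for all tested genes. With the correction 6 were called higher and 24 lower, against 30.3% and 28.2%, with a median of -0.49 against -0.01. The counts by role stand against the same shares of all tested genes. By role, 5 of 10 other claudins were called lower and 2 higher, 2 of 5 tricellular and MARVEL-type proteins lower and 1 higher, and 4 of 6 adhesion molecules lower and 2 higher. Of 19 scaffolds and polarity proteins 13 were called lower and 5 higher, and with the correction 13 lower and 3 higher. Kinases and regulators of small GTPases went the other way, with 6 of 7 called higher and 1 lower, but with the correction 2 higher and 2 lower.

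The 6 wider genes with the smallest p at 24 over 3 months were all lower. Mllt4 (afadin, which links nectins to actin) had a log2 fold of -3.20 ± 0.22 and a corrected one of -1.37. Mpdz, a scaffold with many PDZ domains, had -3.98 and -2.0002 with the correction, its mean level being 35.1 CPM at 3 months and 2.19 at 24 months. Pard3b, a polarity protein, had -3.35, and -1.79 with the correction. Prkci, an atypical protein kinase C of the polarity complex, had -3.28, and -0.87 with the correction. All 4 of these scaffold and polarity genes were called in both fits. Cldn12, with -2.41, and Cxadr, a virus receptor of the junction, with -2.71, were not called with the correction, at -0.15 and 0.16. Mllt4, Prkci and Pard3b were also the leading genes at 24 over 12 months, with -2.61, -2.83 and -2.89.

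Of the 47 wider genes 3 were called at 12 over 3 months, against 15.2% of all tested genes. Cldn15, a claudin that forms cation pores, was higher with a log2 fold of 0.80 (adjusted p = 0.021), and called in 3 of the 6 fits that left out 1 mouse. That call was lost with the correction (0.57, adjusted p = 0.058) and under library totals (adjusted p = 0.097). Amotl1, an angiomotin, was lower with -1.33 (adjusted p = 0.02), called in 4 of those 6 fits and with the correction (-0.72, adjusted p = 0.032). Mpdz was lower with -0.86 (adjusted p = 0.034), called in 2 of them, and not called with the correction (-0.25, adjusted p = 0.33) or under library totals (adjusted p = 0.051). None of the 47 was called between 6 and 3 months or between 12 and 6 months.

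Markers of the lung epithelium were present in every library, and their own levels differed at 24 months. The summed level of 6 epithelial markers was 1317 to 1555 CPM at 3 months and 2919 to 3676 at 24 months, with 4 of 6 called higher and 2 lower, or 1 and 2 with the correction. Calls in these lists stand against the 82.8% of all tested genes called in this comparison (58.5% with the correction). Within that list Cdh1 read 372, 398 and 440 CPM at 3 months and 184, 169 and 104 at 24 months. The sum of 6 type 1 cell markers was 3475 to 4440 and 8730 to 12454, with 2 called higher and 4 lower, or 1 and 2 with the correction. In that list Ager averaged 2421 CPM at 3 months and 8046 at 24 months, while Hopx averaged 502 and 206. The sum of 6 type 2 cell markers was 24849 to 29428 and 37225 to 44109, with 3 called higher and 2 lower, or 2 and 2 with the correction. Endothelial markers summed to 2048 to 2325 and 668 to 1282, with 4 of 4 lower in both fits. Members of the 3 epithelial lists thus differed in direction, and those of the endothelial list did not. Stratified epithelium markers summed to 2.26 to 2.81 at 3 months, and to 5.19, 11.7 and 761 in mice 1, 2 and 3 of 24 months. Of the stomach markers, Gkn1, Gkn2 and Tff1 were at 0 in all 12 libraries, and the 4 stomach markers never summed to more than 0.468. The part of cell composition in the changes of the 9 genes was not tested.

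For 2 of the claudins the genes with the most similar pattern were listed, as a description. Over the 12 libraries the highest Pearson r of log2 CPM with Cldn18, among 13503 genes, were Ptplad1 at 0.992, F2rl1 at 0.991, Arf4 at 0.989 and Fam20b at 0.988. With Cldn4 they were Hspbp1 at 0.989, Cisd3 at 0.989, Vamp5 at 0.988 and Aldh3a1 at 0.987. Over the 12 libraries the r of Cldn4 was 0.973 with Cldn3, its neighbour on chromosome 5, and 0.976 with Cldn7, on chromosome 11. Over the 9 younger libraries these were 0.876 and 0.891. All these values share library depth and scaling, and over 12 libraries also the GC difference at 24 months. The smaller GC difference of mice 1 and 2 of 12 months enters the values over the 9 younger libraries as well.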

How the data were processed

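Lung poly(A) RNA of 12 mice was sequenced, with 3 mice per age. The deposited table held counts, the reads per gene and library, per the file headers. It also held FPKM computed by the authors, which matched 235411 of 235411 values recomputed from reads and gene length within 1e-06. Signal columns deposited by the authors, apparently scaled mean reads of an age, were not used, and 2 repeats of the 3-month signal were set aside. Log2 fold changes and adjusted p-values (p_value) deposited by the authors are quoted only where named. TopHat, STAR 2.5 and HTSeq 0.6.1 and build mm10 are named, without roles, in the submitters' processing notes. The sources used here state neither the use of strand in counting nor the handling of reads shared by paralogs. No batch, date or lane was given, so no value within a batch could be had.

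The counts were filtered with filterByExpr, scaled with TMM and tested with the edgeR 4.0.16 quasi-likelihood F test (R 4.3.3, robust, all 12 libraries, Benjamini-Hochberg adjustment over 16042 genes, calls at an adjusted p under 0.05). CPM used TMM library sizes. SE was derived from the fold and the F statistic. Each library is 1 mouse, so differences between ages were tested against the spread between mice of the same age. That spread was pooled over all ages in the fit and its estimate also drew on the other genes. Alternatives were RLE size factors, DESeq2 1.42.0, limma 3.58.1 with voom, a block for mouse number, fits on the 2 ages compared alone, fits that drop the 24-month libraries, a floor of 1 on mean CPM, all genes unfiltered, a correction in which each library's smooth on GC content and log2 gene length (mgcv 1.9.3) enters as an offset, and leaving out each mouse. Scaling by library totals and leaving out each mouse with the correction were added after seeing the data. GC content came from the longest GENCODE M21 transcript and was found for 97.8% of genes and all 9 members, which left 15949 tested genes in corrected fits. The fits were run on simulated counts with few changed genes and a fixed spread, the corrected fit with a linear GC slope added. Those settings are simpler than these data, so the simulation does not show how well the correction works here.

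The members, the wider junction list and the markers were chosen with earlier results of these data known. Named genes are all 9 members, the 6 called genes of the wider list with the smallest p at 24 over 3 months and up to 3 in each other comparison, the leading 2 markers of each marker list, and the 4 genes most like Cldn18 and Cldn4 over 12 libraries (those over the 9 younger libraries are not reported here). Cdh1 and Epcam, Ager and Hopx, and Gkn1 and Gkn2 are such markers. Of the wider list 54 of 55 symbols were in the table. Upstream windows came from RefSeq for all 9 members. Read totals of 14.7 to 21.2 M per library leave Ocln at 24 months with as few as 27 reads.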

Additional observations from a re-analysis of the deposited data

How the results depend on the processing

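At 24 over 3 months 8 of the 9 genes were called, and 7 to 8 when 1 mouse was left out; the correction called 5, the correction with the replicate block 5, and corrected fits without 1 mouse 4 to 5. At 24 over 12 months 8 were called, and the correction, alone and with the block, called 3 (2 to 4 without 1 mouse). At 12 over 3 months, where 3 were called, RLE scaling called 0, DESeq2 5, the replicate block 1, and the fit without the 24-month libraries 6. Leaving out 1 mouse called 0 to 1, or 0 to 5 with the correction. At 12 over 6 months the count of 0 became 3 with only the 2 ages compared, 4 without the 24-month libraries, and 1 when those were left out with the correction. The counts of all tested genes called, given below, also moved with these settings, and the cause of these changes was not tested.

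Signs turned as follows, with the correction alone and then with the block added. At 24 over 3 months, Cldn18 turned to 0.21 and 0.19, Cgn to -1.10 and -1.13, and Cxadr to 0.16 and 0.16. At 12 over 3 months, Cldn18 turned to 0.30 and 0.28 and Ocln to 0.25 and 0.24. Corrected and without the 24-month libraries these 2 gave 0.30 and 0.25. At 24 over 12 months, Cldn3 turned to -0.32 and -0.31, Cldn4 to -0.20 and -0.20, Cldn7 to -0.042 and -0.045, Tjp3 to -0.37 and -0.37 and Cgn to -0.38 and -0.38. Scaling by library totals turned Cgn at 24 over 3 months to -0.60.

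Over all fits without 1 mouse, uncorrected and corrected, the log2 folds that changed sign had these ranges. At 24 over 3 months they were -1.47 to 0.35 for Cldn18, -0.040 to 2.57 for Tjp3, -1.25 to 0.20 for Cgn and -2.97 to 0.27 for Cxadr. At 12 over 3 months they were -0.17 to 0.48 for Cldn18 and -0.34 to 0.38 for Ocln. At 24 over 12 months they were -1.44 to 0.052 for Cldn18, -0.42 to 1.53 for Cldn3, -0.34 to 1.29 for Cldn4, -0.12 to 1.29 for Cldn7, -0.34 to 0.046 for F11r, -0.43 to 1.68 for Tjp3 and -0.55 to 1.08 for Cgn. In uncorrected fits the sign changed for Cgn at 24 over 3 months (-0.22 to 0.20), Cldn18 at 12 over 3 months (-0.17 to 0.18) and F11r at 24 over 12 months (-0.34 to 0.0089).

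By reads the share of Cldn18 among the 4 claudins was 81.7%, 78.4%, 69.1% and 32.3% at 3, 6, 12 and 24 months. Mice with the same number at different ages were not treated as pairs, since the labels do not say that a number is shared between ages. The residuals of the 18 such pairs had a median r of -0.05 (-0.25 to 0.19), which cannot show that no link exists. All tested genes called numbered 2433 at 12 over 3 months, 5737 without the 24-month libraries, 3938 with only those 2 ages and 1587 with the block. In that comparison they were 2059 under RLE, 3443 of 24086 by DESeq2, 298 to 3443 without 1 mouse, and 778 to 2275 corrected without 1 mouse. At 12 over 6 months they numbered 325, and 17 with the block, 187 under RLE, 49 by library totals, 1610 by DESeq2, 653 by limma and 903 corrected. In that comparison they were 2212 with only the 2 ages, 3167 without the 24-month libraries and 2450 when those were left out with the correction. At 24 over 12 months they numbered 12791, and 7105 corrected, 6830 with the block added, and 6301 to 7132 corrected without 1 mouse. At 24 over 3 months they numbered 13277, and 12701 to 13153 without 1 mouse. Corrected they were 9331 there, 9085 with the block added, and 8156 to 9043 without 1 mouse. Scaling by library totals moved the share of calls that were higher at 24 over 3 months from 46.2% to 33.1%. Depth limits Ocln and Tjp1 at 24 months, which rest on as few as 27 and 87 reads, and Cldn4 at the younger ages, with as few as 125 reads at 3 months.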

Other observations

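Other epithelial markers were spread in direction at 24 months. The ciliated cell markers summed to 203 to 262 CPM at 3 months and 581 to 870.0 at 24 months, and Foxj1, the master regulator of motile cilia, averaged 119 and 559 CPM. The club cell markers summed to 23951 to 34408 at 3 months and to 44997, 34820 and 15991 in mice 1, 2 and 3 of 24 months, where Scgb1a1 averaged 26552 and 26893 CPM. Mesothelial markers, with Msln and Upk3b, summed to 167 to 221 and 455 to 550.0 CPM. Leukocyte markers summed to 151 to 174 and 288 to 626 CPM, though Ptprc, a pan-leukocyte marker, read 18.1 CPM on average at 24 months against 95.9 at 3 months. These sums and means carry no correction for GC content. Called higher and lower were 2 and 1 of 3 ciliated, 1 and 1 of 3 club, 2 and 1 of 3 mesothelial and 3 and 1 of 4 leukocyte markers. With the correction the counts were 1 and 1, 1 and 0, 0 and 1, and 3 and 0. Of all tested genes 82.8% were called, or 58.5% with the correction.

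Mouse 3 of 24 months held 935 reads of Krt5 and 3921 of Krt13, keratins of stratified epithelium, and the other 11 libraries held at most 198 of Krt5 and 12 of Krt13. The same mouse had the highest Cldn3, Cldn4, Cldn7 and Tjp3 and the lowest Cldn18, Ocln, F11r and Tjp1 of all 12 mice. The part of stratified epithelium in those levels was not tested, and in the uncorrected fit the 24 over 3 months calls of 7 genes other than F11r stood without this mouse. In the corrected fit the call of Cldn7 was lost without it (0.25, adjusted p = 0.092).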
